A study of Mus musculus with 2 samples.

Results

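Synaptic vesicle fusion and the active zone are described here through 55 genes, chosen by name as the core of the presynaptic release machinery and measured in adult mouse cortex. All 55 symbols matched 1 row each among the 43346 gene rows of the deposited tables, and each was placed in 1 of 8 roles: SNARE proteins, SNARE regulators and priming factors, SNARE disassembly, synaptotagmins, vesicle membrane proteins, synapsins, Rab3 and the active zone scaffold. The tissue was cortical plate of C57BL/6J mice aged 8 weeks, from littermates of mixed sex whose material was pooled. RNA longer than 200 nt was selected for polyadenylation and read strand-specifically from both ends. The 2 libraries are biological replicates 2 and 1 of a group called adult cortex, with no allele or agent and no second condition, so every comparison below is between genes, between transcripts, or between these 2 libraries.

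Neurotransmitter leaves a nerve terminal when a vesicle fuses with the plasma membrane at the active zone, the electron-dense patch that faces the postsynaptic cell. Fusion is driven by a helical bundle of SNARE proteins, with synaptobrevin on the vesicle and syntaxin and SNAP-25 on the target membrane. Munc13 proteins prepare the vesicle, complexins and the calcium sensor synaptotagmin time its fusion, and NSF with its SNAP adaptors takes the spent complex apart. In cortex this machinery serves glutamate and GABA terminals alike, and families of paralogues tune it between cell types.

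The tables held 92939474 expected counts for replicate 2, with 4.62% on rows other than Ensembl genes, and 91875460 for replicate 1, with 3.86% on such rows. Mitochondrially encoded genes took 36.7% of gene TPM in replicate 2 and 34.3% in replicate 1. TPM (a share of all transcripts, corrected for length) was lower in replicate 2 over most genes, with a median log2 TPM ratio of -0.16 over all genes tested, and 50 of the 55 genes had the lower TPM there. Markers of the labelled tissue were present: all 8 general neuronal markers and all 6 markers of excitatory neurons exceeded 1 TPM in the mean. Some marker lists of other regions and cell types differed between the libraries. The 10 striatal markers summed to 442 TPM in replicate 2 and 160.0 TPM in replicate 1, and all 10 were higher in replicate 2; Isl1, the rarest, had 0.740 TPM in replicate 2 and was listed at 0 in replicate 1. The 6 hippocampal markers summed to 14.0 TPM in replicate 2 and 28.5 TPM in replicate 1. The 6 oligodendrocyte markers summed to 4253 TPM in replicate 2 and 3491 TPM in replicate 1. The 4 thalamic markers summed to 18.9 TPM in replicate 2 and 20.9 TPM in replicate 1, lower in replicate 2 as most genes were in TPM. On counts scaled between the libraries, the thalamic markers had a median log2 ratio of 0.11, replicate 2 to replicate 1. In bulk tissue, fewer cells of a type and less RNA per cell cannot be told apart.

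All 55 genes were transcribed in cortex, from 2.62 TPM for Syt9 to 1529.5 TPM for Snap25. Their median was 55.1 TPM, against 14.1 TPM for the 13050 protein-coding genes at 1 TPM or more. The summed level of the 55 was 7252 TPM in replicate 2 and 8118 TPM in replicate 1, or 0.764% of all gene TPM in replicate 2 and 0.854% in replicate 1. In the mean, 49 genes had 10 TPM or more, 18 had 100 TPM or more and 4 had 500 TPM or more, namely Snap25, Vamp2, Rab3a and Syp. Those 4 also ranked among the 100 most abundant protein-coding RNAs. Ranked from high to low, 13 of the 54 neighbouring pairs did not overlap between libraries, so most neighbours in the order were within the spread of the replicates.

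**Figure D1:**
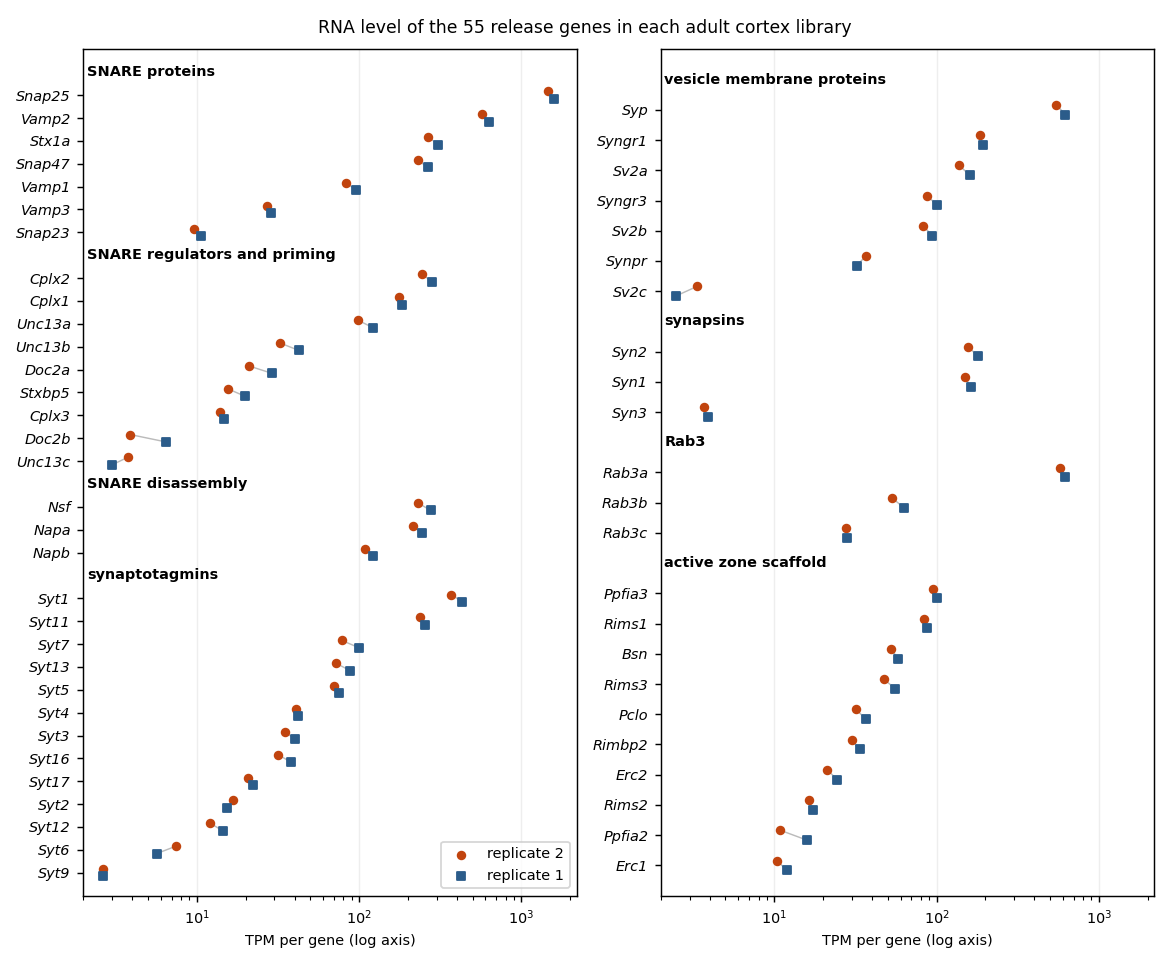
TPM of each of the 55 genes (log axis) in replicate 2 (circles, upper of each row) and replicate 1 (squares), grouped by role and sorted by mean. Snap25 lies highest, at 1465 TPM in replicate 2 and 1594 TPM in replicate 1, and Syt9 lowest, at 2.62 TPM in replicate 2 and 2.63 TPM in replicate 1.

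SNARE proteins were the largest class by level. The 7 genes summed to 2654 TPM in replicate 2 and 2933 TPM in replicate 1, which was 36.3% of the level of all 55. Snap25, the target-membrane SNARE of neurons, had 1465 TPM in replicate 2 and 1594 TPM in replicate 1, ranked 23 among 21474 protein-coding genes and held 54.8% of the class. Vamp2 (synaptobrevin 2), the main vesicle SNARE of forebrain, had 571 TPM in replicate 2 and 631 TPM in replicate 1. Stx1a, syntaxin 1A of the plasma membrane, had 267 TPM in replicate 2 and 308 TPM in replicate 1. Snap47, a SNAP-25 relative without the lipid-anchored cysteines, averaged 247 ± 23.3 TPM (SD, n = 2, as for every mean below). Vamp1, the synaptobrevin of many brainstem and spinal terminals, averaged 89.7 ± 8.90 TPM, and Vamp3 (cellubrevin), which serves constitutive traffic, 27.8 ± 1.05 TPM. Snap23, the SNAP-25 homologue of non-neuronal exocytosis, was lowest with 9.53 TPM in replicate 2 and 10.6 TPM in replicate 1. No neighbours within this class overlapped. Vamp3 shares a strand and part of its locus with Camta1, and the effect of this on its count was not tested. Of the 55 genes, 54 had whole expected counts in both libraries.

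Snap25 is made with either of 2 mutually exclusive exons 5, which encode the part that carries the palmitoylated cysteines. Exon 5a lies at chr2:136769743-136769860 and exon 5b at chr2:136770057-136770174 (GRCm38, plus strand), inside coding sequence. Both are 118 nt long and differ at 31 positions, so they are 73.7% identical. They are shown because the choice between them is the best known splice switch of the release machinery, with 5a prevailing before birth and 5b in the adult brain. Capitals mark the positions at which the exons differ (exon sequence from GENCODE M21).

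exon 5a: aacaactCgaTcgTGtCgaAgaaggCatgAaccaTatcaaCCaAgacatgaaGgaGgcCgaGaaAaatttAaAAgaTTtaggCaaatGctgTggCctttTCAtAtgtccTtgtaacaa
exon 5b: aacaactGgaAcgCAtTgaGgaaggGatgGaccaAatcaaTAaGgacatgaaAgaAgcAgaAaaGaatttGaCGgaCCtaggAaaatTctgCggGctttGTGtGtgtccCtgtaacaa

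In the deposited junction table, which is on the older mm9 assembly and does not say which column is which replicate, exon 5b prevailed. The junction into exon 5a had 1125 reads of 20204 in the first column, or 5.57% (95% Wilson interval 5.26 to 5.89), and 1172 of 18852 in the second, or 6.22% (5.88 to 6.57). The junction out of exon 5a had a larger share, 11.2% of 7590 reads in the first column and 11.6% of 7540 in the second. The mm10 transcript tables gave Snap25-202, the transcript with exon 5a, 4.44% of Snap25 TPM in replicate 2 and 4.53% in replicate 1. Snap25-201, with exon 5b, held 95.4% in each. Exon 5a was thus a minor form by every measure, with a share that differed more between measures than between libraries. Both transcripts have a coding length of 618 nt.

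The 9 SNARE regulators and priming factors were moderate in level, with 608 TPM summed in replicate 2 and 703 TPM in replicate 1. Cplx2, a complexin that clamps and promotes fusion, led with 245 TPM in replicate 2 and 282 TPM in replicate 1. Its paralogue Cplx1 had 175 TPM in replicate 2 and 185 TPM in replicate 1. Cplx3, the complexin best known from retina, averaged 14.2 ± 0.615 TPM. Cplx2 exceeded Cplx1 in both libraries.

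Among the Munc13 priming proteins, Unc13a (Munc13-1) had 98.3 TPM in replicate 2 and 121 TPM in replicate 1. Unc13b (Munc13-2) had 32.6 TPM in replicate 2 and 42.4 TPM in replicate 1. Unc13c (Munc13-3), whose known site is the cerebellum, had 3.74 TPM in replicate 2 and 3.01 TPM in replicate 1, the lowest level in this class. Unc13c therefore ran opposite to its 2 paralogues between the libraries. Doc2a, a C2-domain calcium sensor linked to spontaneous and asynchronous release, averaged 24.9 ± 5.66 TPM, its relative Doc2b 5.14 ± 1.79 TPM, and Stxbp5 (tomosyn), which competes with synaptobrevin for syntaxin, 17.6 ± 3.01 TPM.

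The disassembly enzymes were close to one another in level. The ATPase gene Nsf had 232 TPM in replicate 2 and 276 TPM in replicate 1, and Napa (alpha-SNAP) had 216 TPM in replicate 2 and 244 TPM in replicate 1, so their ranges overlapped. Napb, the brain-enriched beta-SNAP, was lower at 108 TPM in replicate 2 and 122 TPM in replicate 1. Per read rather than per length the order of the 2 adaptors turned round, with 33631 counts for Napb and 23560.0 for Napa in replicate 2. Short retained-intron transcripts held part of Napa, and all its transcripts outside the protein-coding class took 43.8% of its TPM. Nsf lies on the same strand as the pseudogene Gm8738, and the effect of this on its count was not tested.

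The 13 synaptotagmins summed to 992 TPM in replicate 2 and 1132 TPM in replicate 1. Syt1, the calcium sensor of fast synchronous release in forebrain, had 369.6 TPM in replicate 2 and 433 TPM in replicate 1, 37.8% of the family. Syt11, which lacks calcium binding, had 236 TPM in replicate 2 and 256 TPM in replicate 1. Syt7, the high-affinity sensor tied to asynchronous release and facilitation, had 78.0 TPM in replicate 2 and 99.6 TPM in replicate 1. The fast sensor Syt2, which dominates in hindbrain and in some inhibitory terminals, averaged 16 ± 0.813 TPM. Among the rest, Syt13 averaged 79.9 ± 11.0 TPM, Syt5 72.3 ± 3.30 TPM, Syt4, an atypical form with weak calcium binding, 41.6 ± 0.771 TPM, and Syt3 37.6 ± 4.11 TPM. Syt16 averaged 34.8 ± 4.42 TPM, Syt17 21.4 ± 1.11 TPM, Syt12 13.3 ± 1.63 TPM and Syt6 6.54 ± 1.25 TPM. Syt9 was lowest at 2.62 TPM in replicate 2 and 2.63 TPM in replicate 1. Within the family, Syt7 and Syt13, Syt13 and Syt5, and Syt3 and Syt16 were neighbours whose ranges overlapped.

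Syt1 showed a splice choice of 9 nt that splits its RNA nearly evenly. A donor site joined an acceptor that keeps 9 coding bases in Syt1-201, or the next acceptor, annotated in Syt1-206, that omits them. The exon is chr10:108636551-108636673 (GRCm38, minus strand, coding), and it is shown with the optional bases in capitals.

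Syt1 exon: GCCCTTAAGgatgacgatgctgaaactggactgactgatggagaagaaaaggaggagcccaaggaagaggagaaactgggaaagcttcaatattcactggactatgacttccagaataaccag

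The junction that keeps the capitals had 2369 of 4400 reads in the first mm9 column, or 53.8% (52.4 to 55.3), and 1825 of 3696 in the second, or 49.4% (47.8 to 51.0). The intervals of the columns did not overlap, although the share moved little. The transcript tables, in which Syt1-206 is a short processed transcript, gave Syt1-206 11.1% of Syt1 TPM in each library. The even split of the junction reads was therefore not visible in transcript shares.

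Vesicle membrane proteins, 7 genes, summed to 1079 TPM in replicate 2 and 1206 TPM in replicate 1. Syp (synaptophysin), an abundant tetraspan protein of the vesicle that binds synaptobrevin, had 548 TPM in replicate 2 and 623 TPM in replicate 1 and made up 51.2% of the class. Syngr1 (synaptogyrin 1), another tetraspan protein, had 184 TPM in replicate 2 and 194 TPM in replicate 1. Sv2a, a transporter-like glycoprotein and the binding site of levetiracetam, had 138 TPM in replicate 2 and 159.8 TPM in replicate 1. Syngr3 averaged 94.0 ± 9.48 TPM and Sv2b 88.3 ± 8.07 TPM, and these overlapped. Sv2c, the SV2 form known for the basal ganglia and brainstem, was lowest with 3.35 TPM in replicate 2 and 2.47 TPM in replicate 1.

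Synpr (synaptoporin), a relative of synaptophysin, had 36.6 TPM in replicate 2 and 32.1 TPM in replicate 1, and its leading transcript was not the same in the libraries. Synpr-201 held 41.2% of Synpr TPM in replicate 2 and 74.7% in replicate 1. Synpr-202, from a start far downstream in the same gene, held 51.2% in replicate 2 and 21% in replicate 1. In TPM, Synpr-202 had 18.8 in replicate 2 and 6.73 in replicate 1, while Synpr-201 had 15.1 in replicate 2 and 23.9 in replicate 1. The RNA from the downstream start was thus the higher form in replicate 2 and the lower in replicate 1. The forms have coding lengths of 855 nt (Synpr-201) and 795 nt (Synpr-202).

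The first-exon junctions showed a split as large. Of the reads into the shared acceptor, the first exon of Synpr-201 had 164 of 271 in the first mm9 column, or 60.5% (54.6 to 66.2), and 133 of 408 in the second, or 32.6% (28.2 to 37.3). The first exon of the downstream group had 87 reads (32.1%) in the first column and 260 (63.7%) in the second. The leading start therefore differed between the mm9 columns as it did between the mm10 libraries, and both tables come from the same group of samples. Synpr was the only gene of the 49 at 10 TPM or more whose leading transcript differed, against 3.56% of all 8169 such genes. The striatal markers given above moved between the same libraries, and their part in the Synpr difference was not tested.

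Both Synpr start regions are shown because the libraries differ in which is used. They are RefSeq promoter windows on GRCm38.p6, plus strand, from 250 bases before to 50 after the start, at chr14:13284530-13284829 for Synpr-201 and chr14:13453708-13454007 for the downstream start, which is the first base of Synpr-205 and lies 71 bases before Synpr-202. Capitals mark the 50 bases from the start site on.

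Synpr-201 start: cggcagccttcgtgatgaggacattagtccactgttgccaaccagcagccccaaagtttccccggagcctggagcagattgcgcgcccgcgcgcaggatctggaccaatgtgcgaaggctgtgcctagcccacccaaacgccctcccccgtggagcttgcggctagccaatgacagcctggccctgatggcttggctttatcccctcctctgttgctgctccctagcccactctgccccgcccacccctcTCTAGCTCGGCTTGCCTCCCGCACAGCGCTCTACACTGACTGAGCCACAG
downstream start: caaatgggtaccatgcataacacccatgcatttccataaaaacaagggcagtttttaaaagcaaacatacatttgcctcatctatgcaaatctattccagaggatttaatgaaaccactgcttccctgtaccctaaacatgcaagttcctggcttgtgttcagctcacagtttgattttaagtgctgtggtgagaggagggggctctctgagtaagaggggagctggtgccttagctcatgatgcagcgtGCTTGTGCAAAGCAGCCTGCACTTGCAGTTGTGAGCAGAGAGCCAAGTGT

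The upstream window had 63.7% GC and 16 CpG dinucleotides, and the downstream window 46.0% GC and 1 CpG. Over the 51 windows found for 41 of the 55 genes, median GC was 62.7% and the median number of CpG was 19.0, against 52.7% and 7.00 over all 32851 windows of the same length. A set of 3 motifs was searched on both strands without regard to overlap between motifs. TATAAA was in 5.88% of the windows of these genes and in 13.6% of all windows. The cyclic AMP response element TGACGTCA was in 3.92% of windows, those of Napa and Syn1, and in 1.79% of all. The left arm of the RE1 element, TTCAGCACC, which the neuronal repressor REST binds, was in 5.88% of windows, those of Ppfia3, Syn1 and Unc13a, and in 0.371% of all. These are letter matches and not measured binding. The windows over all genes, 27025 of them, were not limited to genes transcribed in cortex. Whether the contrasts in GC, CpG and motifs are particular to release genes was therefore not tested.

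Synapsins, phosphoproteins that tether the reserve pool of vesicles, were carried by Syn2 and Syn1. Syn2 had 157 TPM in replicate 2 and 180.1 TPM in replicate 1, and Syn1 had 149.6 TPM in replicate 2 and 162 TPM in replicate 1, so their ranges overlapped. Syn3, known for its early developmental role, had 3.68 TPM in replicate 2 and 3.90 TPM in replicate 1. Each of the abundant synapsins had an alternative end. Syn1-202 held 52.9% of Syn1 TPM in replicate 2 and 50.7% in replicate 1, and Syn1-201 the remainder. Syn2-202, with a coding length of 1437 nt, held 77.8% of Syn2 in replicate 2 and 79.3% in replicate 1, and the longer Syn2-201 of 1758 nt the rest.

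The Syn1 forms part at the acceptor of the last exon, which begins 38 bases earlier in Syn1-201. The first 60 bases of that exon, chrX:20861550-20861609 (GRCm38, minus strand, coding in Syn1-201), are shown with the bases absent from Syn1-202 in capitals. Their number is not a multiple of 3, and the coding length is 2118 nt in Syn1-201 and 2010 nt in Syn1-202.

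Syn1 last exon: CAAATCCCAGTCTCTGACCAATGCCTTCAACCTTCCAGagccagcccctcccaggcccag

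The junction of Syn1-201 had 570 of 1015 reads in the first mm9 column, or 56.2% (53.1 to 59.2), and 572 of 1079 in the second, or 53.0% (50 to 56.0). The 2 ends of Syn1 were thus used at nearly equal rates by junction reads and by transcript shares.

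Of the 3 Rab3 GTPases, which mark vesicles for docking, Rab3a held 87.4% of the summed level, with 573 TPM in replicate 2 and 623 TPM in replicate 1. Rab3b had 53.1 TPM in replicate 2 and 62.7 TPM in replicate 1, and Rab3c 27.8 TPM in replicate 2 and 28.2 TPM in replicate 1. The order did not change between the libraries.

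Active zone scaffold RNAs were less abundant, with 398 TPM over 10 genes in replicate 2 and 442 TPM in replicate 1. Ppfia3 (liprin-alpha 3), of a family that recruits scaffold proteins to the active zone, averaged 97.9 ± 4.66 TPM. Rims1, the RIM protein that links Rab3, Munc13 and calcium channels, had 83.8 TPM in replicate 2 and 87.7 TPM in replicate 1. Bsn (bassoon), a giant cytomatrix protein, had 52.0 TPM in replicate 2 and 58.2 TPM in replicate 1. Its partner Pclo (piccolo) averaged 34.2 ± 3.32 TPM, the short RIM form Rims3 51.6 ± 6.01 TPM, the RIM-binding protein gene Rimbp2 31.7 ± 2.53 TPM, and Rims2 16.8 ± 0.651 TPM. The ELKS family gene Erc2 averaged 22.8 ± 2.25 TPM and Ppfia2 (liprin-alpha 2) 13.4 ± 3.46 TPM. Erc1, the more widely expressed ELKS gene, was lowest with 10.4 TPM in replicate 2 and 11.9 TPM in replicate 1. Bsn shares part of its locus with Gm37247 on the same strand. Ranges overlapped between Bsn and Rims3, Pclo and Rimbp2, and Ppfia2 and Erc1.

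Paralogue levels were compared per length in 21 pairs named by family. In 17 of them the first-named gene was higher in both libraries, and no pair changed sign between libraries. Snap25 exceeded Snap23 by a log2 TPM ratio of 7.26 in replicate 2 and 7.23 in replicate 1, the widest gap. Wide gaps of a similar kind separated Syn2 from Syn3, with a mean log2 ratio of 5.47 ± 0.081 (SD over 2 libraries), Vamp2 from Vamp3 at 4.43 ± 0.047 and Rab3a from Rab3c at 4.41 ± 0.072. Cplx2 over Cplx3 stood at 4.21 ± 0.082 and Rab3a over Rab3b at 3.37 ± 0.085. Narrower gaps were found for Vamp2 over Vamp1 at 2.75 ± 0.042, Rims1 over Rims2 at 2.35 ± 0.010, Syt1 over Syt7 at 2.18 ± 0.088 and Unc13a over Unc13b at 1.55 ± 0.058. Between libraries the SD of these ratios was at most 0.088. They rest on division by length: on expected counts not divided by length, Rab3a over Rab3c became 1.59, Unc13a over Unc13b 2.68, Cplx2 over Cplx3 5.05 and Syt1 over Syt7 1.54.

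Close pairs were Erc2 over Erc1 with a mean log2 ratio of 1.03 ± 0.002, Sv2a over Sv2b with 0.75 ± 0.018 and Bsn over Pclo with 0.69 ± 0.025. The first-named gene was lower for Syn1 over Syn2 at -0.11 ± 0.062, Cplx1 over Cplx2 at -0.55 ± 0.084, Napb over Napa at -1.0 ± 0.003 and Doc2b over Doc2a at -2.30 ± 0.18. Not divided by length, Cplx1 over Cplx2 became -1.80, Doc2b over Doc2a -1.28 and Napb over Napa 0.51, a change of sign. The pairs that moved most between libraries were those of Sv2c and Unc13c. Sv2b over Sv2c had a log2 ratio of 4.62 in replicate 2 and 5.25 in replicate 1, and Unc13a over Unc13c had 4.72 in replicate 2 and 5.33 in replicate 1. Syp over Synpr averaged 4.09 ± 0.27 and Syt1 over Syt2 4.65 ± 0.24. In the mm9 RPKM table the mean log2 ratio was 2.02 for Bsn over Pclo, 0.93 for Unc13a over Unc13b, 5.31 for Syt1 over Syt2 and 6.65 for Snap25 over Snap23, which moved each fold by over 1.5 times without a change of sign.

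**Figure D2:**
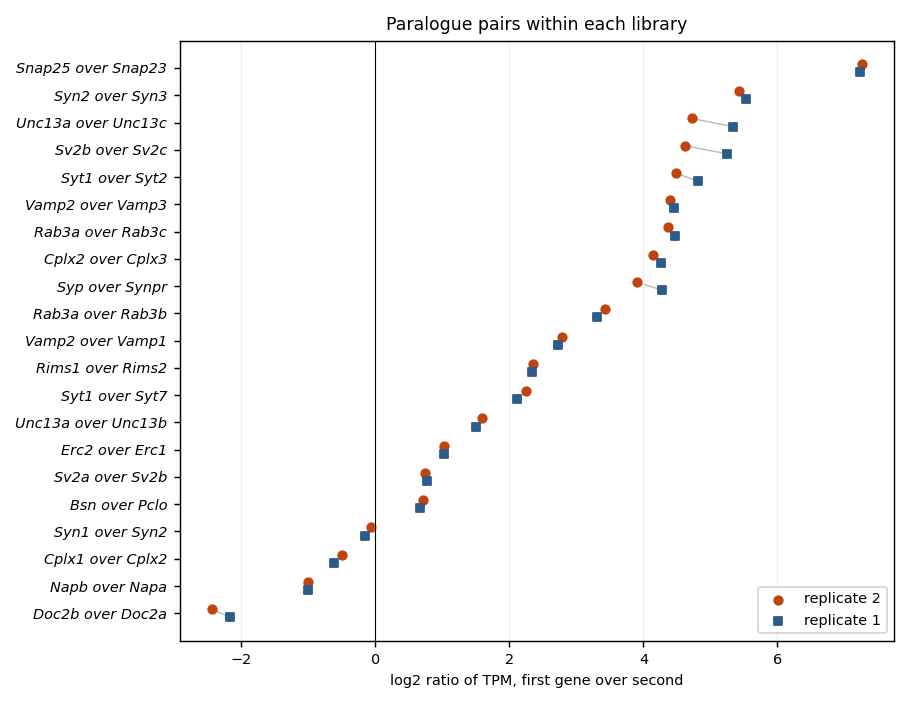
Log2 ratio of TPM of the first gene over the second for 21 paralogue pairs, in replicate 2 (circles) and replicate 1 (squares), sorted by mean. No pair crosses 0 between libraries, and Sv2b over Sv2c and Unc13a over Unc13c lie farthest apart.

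The libraries were then compared gene by gene on expected counts scaled by TMM, with an exact binomial test that allows for counting error only. Of the 55 genes, 18 were higher and 19 lower in replicate 2 at an adjusted p under 0.05, together 67.3%. Over all 19829 genes tested, 28.3% passed in either direction, 14.5% higher and 13.8% lower in replicate 2. At a summed depth of 1000 counts or more, which all 55 genes had, the share was 38.3% of 11543 genes. Most of these differences were small, since 43 of the 55 lay within 1.1-fold and 48 within 1.2-fold. The median log2 ratio of the 55 was -0.011, against 0.003 over all genes tested. Scaling by plain totals in place of TMM gave 9 genes higher and 26 lower, so the balance of directions rests on the scaling.

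When the noise was widened to the spread seen over all genes (a biological coefficient of variation of 0.0905, edgeR exact test), 0 of the 55 passed, against 1.31% of all genes. The lowest adjusted p among the 55 was then 0.090, for Sv2c. Before that widening, 37 of the 55 passed by counting error alone. The differences named next are therefore larger than counting error, and none passed against the spread over all genes.

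**Figure D3:**
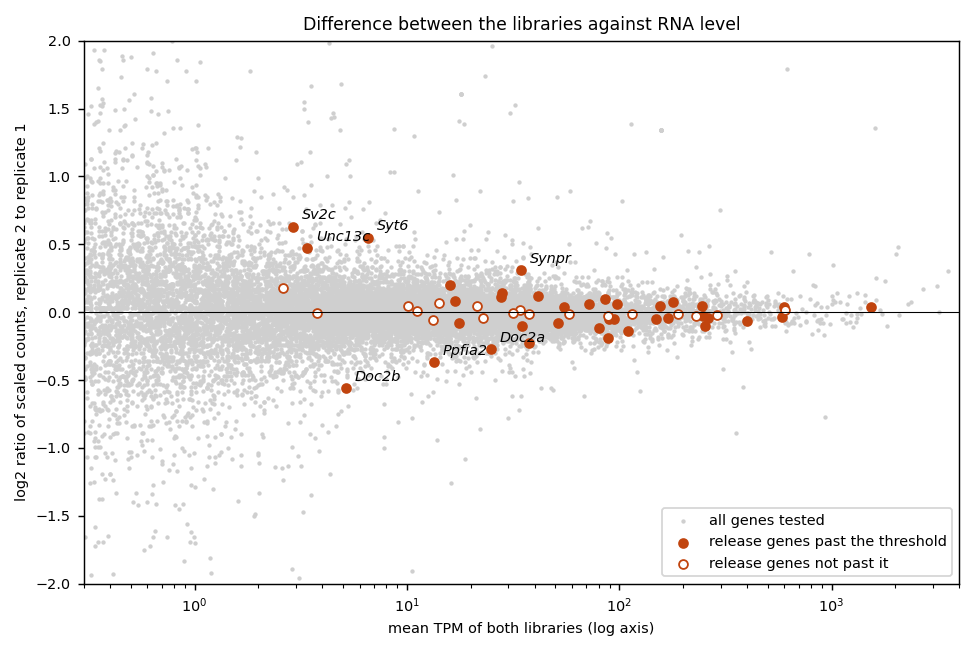
Log2 ratio of scaled counts, replicate 2 to replicate 1, against mean TPM (log axis), for all genes tested (grey) and the 55 release genes (filled where past the threshold of the exact binomial test, open where not). Axes are limited to ratios between -2 and 2, and the 7 genes over 1.2-fold apart are labelled.

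Differences over 1.2-fold were found for 7 of the 55 genes, or 12.7%, against 25.4% of all genes tested and 5.36% of those with at least 1000 counts. Sv2c, at chr13:95954594-96132577 (GRCm38, minus strand), was counted 994 times in replicate 2 and 653 times in replicate 1, so the ratio was 1.55 (95% interval 1.41 to 1.72, adjusted p = 4.5e-17 by the exact binomial test). It was the only gene of the 55 past the threshold with at least 1.5-fold, a size reached with a call by 4.17% of all genes. Syt6, a synaptotagmin of less defined function, had 2187 counts in replicate 2, against 1520.0 in replicate 1, and the ratio was 1.47 (1.37 to 1.57). Unc13c had 2383 counts in replicate 2, against 1749 in replicate 1, with a ratio of 1.39 (1.31 to 1.48). Synpr had 6012 counts in replicate 2, against 4937 in replicate 1, with a ratio of 1.24 (1.2 to 1.29). These 4 were higher in replicate 2, the library in which the 10 striatal markers were higher, and the part of those markers in the result was not tested.

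Lower in replicate 2 were Doc2b, Ppfia2 and Doc2a. Doc2b had 1198 counts in replicate 2, against 1804 in replicate 1, and the ratio was 0.677 (0.629 to 0.729). Ppfia2 had 4939 counts in replicate 2, against 6518 in replicate 1, with a ratio of 0.773 (0.745 to 0.802). Doc2a had 3207 counts in replicate 2, against 3950.0 in replicate 1, with a ratio of 0.828 (0.790 to 0.868). On the same scaled counts, the 6 markers of excitatory neurons had a median log2 ratio of -0.087, with 5 lower and 0 higher in replicate 2, and the 6 of inhibitory neurons a median of 0.10, with 4 higher and 0 lower. The 6 hippocampal markers had a median of -1.67, with 5 lower and 0 higher, and the part of these markers in the 3 results was not tested.

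By role and with TMM scaling, the regulators and priming factors held 6 lower and 2 higher of 9 genes and the synaptotagmins 4 lower and 5 higher of 13. The scaffold had 2 lower and 4 higher of 10, the vesicle membrane proteins 3 lower and 2 higher of 7, and the SNARE proteins 2 of each among 7. Of the 3 synapsins 1 was lower and 1 higher, of the 3 disassembly genes 1 was lower and 0 higher, and of the 3 Rab3 genes 2 were higher and 0 lower. Over all genes 28.3% passed in either direction, and 38.3% of those with at least 1000 counts.

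The high-count core differed little between libraries even where the test called it, and differences of this size shift with the scaling. Snap25 had 202549 counts in replicate 2, against 201587 in replicate 1, with a ratio of 1.02 (1.02 to 1.03). Syt1 was at a ratio of 0.954 (0.946 to 0.962) and Nsf at 0.930 (0.919 to 0.942). Vamp2 at 1.01 (1.00 to 1.02), Stx1a at 0.984 (0.970 to 0.999) and Napb at 0.992 (0.978 to 1.01) did not pass.

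A second list held 55 further genes of vesicle release, of which 54 matched a row. Among them Prrt2, a presynaptic membrane protein that modulates SNARE assembly, had 186 TPM in replicate 2 and 187 TPM in replicate 1. Of the 54, 47 had 1 TPM or more in the mean, and Syt15, Unc13d, Sytl5, Sytl4, Syngr4, Cplx4 and Syt8 stayed under it. Of the 51 tested, 8 were higher and 13 lower in replicate 2, or 41.2%, none of them by 1.5-fold. The share was 28.3% of all genes and 38.3% of those with at least 1000 counts, a depth that not all of the 51 reached. The median log2 ratio of the list was -0.017.

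Transcript shares were read for the 49 genes at 10 TPM or more. In 20 of them the leading transcript held at least 90% of the gene. Among these, 10 had only 1 transcript in the table and so held 100% by construction. This count was not set against all genes, and it does not show undivided RNA. Erc2-201 held 100% of Erc2, a gene with exons of intermediate inclusion, given below. The leading transcript held under 60% in 13 genes, or 26.5%, against 32.4% of all 8169 genes at that level. The remaining 6 genes, Syt6, Doc2b, Syn3, Unc13c, Sv2c and Syt9, were under 10 TPM. Shares were stable between libraries, with a median largest difference of 1.56 percentage points, against 2.05 over all such genes. Differences over 10 points were seen for Synpr and Stxbp5, or 4.08%, against 4.88% of all.

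Rims1 had the most divided RNA of the 13. Rims1-202, whose model is annotated as incomplete at its end and holds 2411 nt of coding sequence, led with 30.7% in replicate 2 and 30.5% in replicate 1, and Rims1-201 followed with 17.2% ± 0.792 in the mean. Syt7 was split between Syt7-203 at 44.0% ± 1.01, Syt7-202 at 40.3% ± 3.37 and Syt7-201 at 15.7% ± 2.35, with coding lengths of 2061, 1833 and 1209 nt. These forms differ in the spacer between the membrane anchor and the C2 domains. Stxbp5-209 held 41.6% in replicate 2 and 33.1% in replicate 1, while the processed transcript Stxbp5-211 held 11.6% in replicate 2 and 22.6% in replicate 1.

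In several genes the division was with transcripts outside the protein-coding class. Unc13b-201 held 38.1% ± 0.339 of Unc13b, where 48.1% lay on such transcripts. Snap23-202 held 50.6% in replicate 2 and 42.1% in replicate 1, with 38.4% outside that class in the mean. Napa-201 held 56.2% ± 0.198, Erc1-201 52.9% ± 1.70 and Unc13a-201 57.7% ± 0.240 of their genes. Syt2-201 held 54.3% ± 1.84 and Syt3-202 56.7% ± 0.601, in genes whose other transcripts are mostly coding. The leading Ppfia3 transcript, which has no name in the annotation used, held 41.1% ± 1.08. In these genes the same transcript led in both libraries. The only Syt16 transcript in the table is annotated as a target of nonsense-mediated decay.

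For the giant scaffolds Bsn and Pclo, the leading share of TPM fell on a transcript model that is annotated as incomplete at its start, so it is not shown to be a separate short RNA. Bsn-202, with 3511 nt of coding sequence in the model, held 72.5% of Bsn TPM in replicate 2 and 75.6% in replicate 1, while the full-length Bsn-201, with 11826 nt, held 25.9% ± 2.21 in the mean. Pclo-204, with 4774 nt of coding sequence in the model, held 68.7% of Pclo TPM in replicate 2 and 72.3% in replicate 1. Pclo-202, with 14589 nt, held 19.1% ± 2.19 in the mean, and Pclo-203, a retained-intron transcript of 17057 nt, 10.3% ± 0.240. TPM divides by length, and the shares of expected counts were closer. Bsn-202 held 55% of Bsn counts in replicate 2 and 59% in replicate 1, and Pclo-204 held 46.2% of Pclo counts in replicate 2 and 50.5% in replicate 1.

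**Figure D4:**
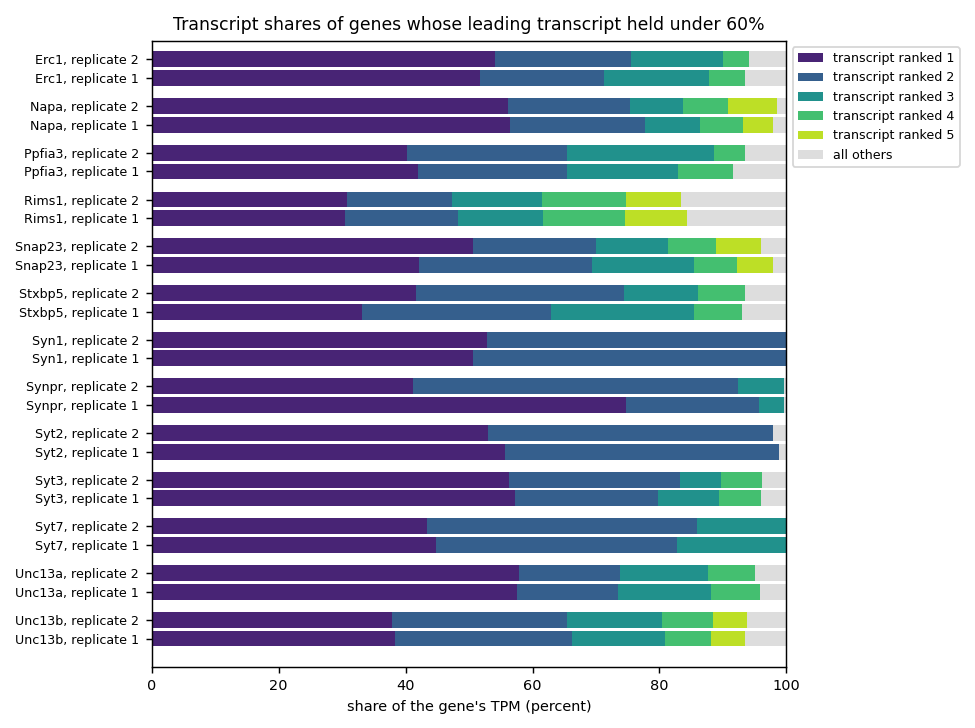
Share of gene TPM (percent) taken by the transcripts of the 13 genes whose leading transcript held under 60%, with replicate 2 above replicate 1 for each gene and colours giving rank by mean share. Transcripts under 5% are among all others. Synpr is the gene whose bars differ most, with a leading share of 41.2% in replicate 2 and 74.7% in replicate 1 for Synpr-201.

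Exon inclusion was taken from junction reads at 597 internal exons of all 55 genes with at least 20 informative reads in each mm9 column. Intermediate inclusion, from 10% to 90%, was found for 16 exons in 10 genes, or 2.68%, against 2.97% of 111485 exons over all genes. The range was applied to the reads of both columns together, and 2 of the 16, both in Erc2, lay outside it in the second column alone. Of the 16, 13 have a length that is a multiple of 3. Rims1, Rims2, Erc1, Erc2 and Ppfia2 held 11 of them, among 204 exons measured in the 10 scaffold genes, or 5.39%. The synaptotagmins held 3 of 81 (3.70%), the SNARE proteins 1 of 38 (2.63%), and the regulators and priming factors 1 of 151 (0.662%). These shares by role were not tested against each other.

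Rims1 had 4 such exons. The exon of 72 nt was included at 51.2% (47.1 to 55.5) in the first column and 49.7% (46.1 to 53.4) in the second, and its neighbour of 183 nt at 49.7% and 44.2%. The exon of 69 nt stood at 67.9% and 61.5%, and that of 81 nt at 88.2% and 87.1%. Those of 72, 69 and 81 nt are printed because they are coding and add or remove whole codons. They lie at chr1:22404444-22404515, chr1:22630412-22630480 and chr1:22726930-22727010 (GRCm38, minus strand).

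Rims1 exon of 72 nt: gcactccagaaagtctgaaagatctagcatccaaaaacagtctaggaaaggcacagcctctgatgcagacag
Rims1 exon of 69 nt: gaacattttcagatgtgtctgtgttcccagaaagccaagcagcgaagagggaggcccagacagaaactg
Rims1 exon of 81 nt: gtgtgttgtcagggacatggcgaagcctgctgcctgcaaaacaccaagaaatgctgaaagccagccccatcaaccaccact

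A coding exon of 36 nt in Unc13b, at chr4:43161443-43161478 (GRCm38, plus strand), had few informative reads and wide intervals, with 26.5% (12 to 44.9) in the first column and 46.0% (28.2 to 60.7) in the second. It is printed as the shortest intermediate exon with a position on this assembly.

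Unc13b exon of 36 nt: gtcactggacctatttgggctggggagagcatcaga

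In the ELKS genes, Erc1 exons of 132 and 84 nt were included at 18.2% and 24.1% in the first column and 27.6% and 15.8% in the second. Erc2 exons of 24, 36 and 66 nt stood at 12.7%, 27.3% and 85.3% in the first column and at 7.57%, 30.8% and 94.6% in the second. A Rims2 microexon of 12 nt was included at 52.5% (38.5 to 65.2) and 61.0% (50.2 to 70.8), and the Ppfia2 exon of 92 nt at 85.8% and 84.2%. The Syt7 exon of 132 nt stood at 75.1% (70.6 to 79.0) in the first column and 83.9% (79.8 to 87.4) in the second, with intervals that did not overlap. Most reads leaving this exon were on unflagged junctions, which the measure leaves out, so these values rest on that filter. A single such junction held 60.1% of them in the first column and 57.2% in the second. Of the reads from the donor before the exon, 75.7% and 82.8% joined it. The Syt16 exon of 821 nt was at 65.6% and 67.6%, the Snap23 exon of 93 nt at 54.8% and 47.1%, and the Syt6 exon of 68 nt at 78.7% and 63.0%.

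Of 1341 splice sites in these genes with at least 20 reads in each column, 98 in 23 genes joined 2 or more partners at 10% or more each, or 7.31%, against 6.56% of 243608 sites over all genes. Sv2b illustrates alternative first exons, with 42.4% of acceptor reads in the first column and 40.4% in the second from that of Sv2b-201, and 44.1% and 43.6% from that of Sv2b-202. The transcript tables were less even, with 71.2% of Sv2b TPM in replicate 2 and 73.2% in replicate 1 on Sv2b-201. Sv2b-202 held 28.8% in replicate 2 and 26.9% in replicate 1, so the 2 measures differed. Both forms have the same coding length of 2049 nt. Syt3 chose between acceptors 27 bases apart, with 60.9% and 57.5% of reads on that of Syt3-202. The share of divided sites and of intermediate exons in these genes was near that of all genes.

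**Figure D5:**
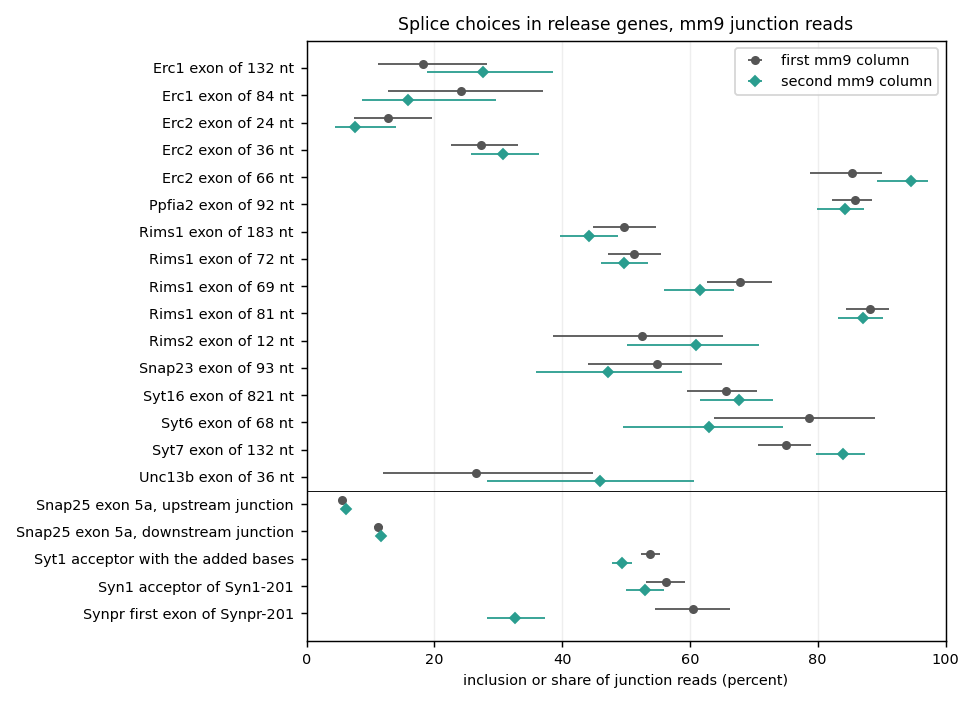
Inclusion of the 16 intermediate exons (above the line) and share of junction reads for named splice choices (below it), in percent with 95% Wilson intervals, in the first (circles) and second (diamonds) mm9 column, which are not assigned to replicates. The share of the Synpr-201 first exon, 60.5% and 32.6%, differs most between columns.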

How the data were processed

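Per the labels, polyadenylated RNA of 2 cortex libraries was measured. The authors deposited gene and transcript tables on mm10 with GENCODE release 4, per the file headers. The authors estimated the expected counts per gene and transcript, fractional where reads fit several. The deposited TPM values were scaled by the authors to a fixed total over all rows. The deposited transcript shares are in percent of gene TPM, as the authors computed them. No program name is given in the sources used here. The deposited mm9 tables give RPKM and, for junctions, read counts in a pair of columns not tied to replicates; that count file's total equals the sum of its columns.

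Symbols, positions and exons came from GENCODE M21 by unversioned identifier, which named 98.0% of gene rows, and promoters from RefSeq on GRCm38.p6. Expected counts were rounded and scaled by TMM (edgeR 4.0.16, R 4.3.3; DESeq2 1.42.0 as an alternative). An exact two-sided binomial test was run on genes with at least 10 counts, with Benjamini-Hochberg adjustment over all of them at 0.05, and log2 ratios used a prior of 0.5 counts. Ratio intervals are 95% Clopper-Pearson and shares 95% Wilson intervals, and both cover counting error only. The p-values compare these 2 libraries, not conditions. On simulated counts of replicate 2 against replicate 1 (19811 genes), the test recovered 91.5% of 200 genes changed 1.5-fold. Those counts held counting error only, without the wider spread seen between the real libraries, and the changed genes were drawn from well-counted ones. The simulation therefore does not show how the test behaves under that spread. Exon inclusion was the mean of reads at the exon's ends over that mean plus skipping reads, from flagged junctions. Skipping reads were only those between sites that the exon itself joined, so inclusion is not a share of all RNA of the gene.

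The 55 genes, the other lists, the pairs and the naming rule were chosen with earlier results of these data known. All 55 were named by role. Values were given for the most and least abundant of each role, each pair, each divided or changing transcript set and each intermediate exon. They were given for both libraries or as mean and SD, and for exons in both mm9 columns. Other steps used Python 3.11.15 with scipy 1.17.1, pandas 2.3.3 and matplotlib 3.10.9.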

Additional observations from a re-analysis of the deposited data

How the results depend on the processing

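The share of gene TPM held by the 55 genes, 0.809% in the mean, became 1.25% over nuclear gene rows only and 1.69% on expected counts not divided by length. With noise widened to the observed spread, 0 of the 55 genes and 0 of the other pathway genes passed, against 37 and 21 by counting error. Napb over Napa reversed on counts not divided by length, to a log2 ratio of 0.51, as that alternative leaves out length. Plain totals gave 9 higher and 26 lower of the 55 genes, and for the other pathway genes 5 higher and 19 lower. TPM ratios gave a median of -0.18 for the 55 genes, against -0.16 for all. In mm9 RPKM, 51 of the 55 genes reached 1, and Sv2c, Syn3, Unc13c and Doc2b did not. Leaving out a library left all 55 genes at 1 TPM or more, a share of gene TPM of 0.764% to 0.854%, 17 of 21 pairs with the first gene higher, and 12 to 13 genes with a divided transcript set. Intermediate exons numbered 13 at a minimum of 50 reads and 22 with junctions of either flag. Divided splice sites numbered 81 at a minimum of 50 reads, an alternative chosen after seeing the data. No paired analysis was possible because the series has 1 group. Rare genes such as Syt9, with a lowest count of 550, have the widest intervals.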
